A study of Mus musculus with 5 samples.

Results

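The genes described here are 6 genes tied to the response to low oxygen and to sugar breakdown: Egln1, Car9, Pdk1, Bnip3, Pgk1 and Tpi1. They were measured in mesenchymal stem cells (MSC) from mouse bone marrow, either sharing medium with activated T cells or grown alone. Every probe set annotated to 1 of these 6 symbols was taken from the deposited array table, which gave 12 of its 3373 probe sets. Egln1 had 2 probe sets, Car9 1, Pdk1 3, Bnip3 1, Pgk1 2 and Tpi1 3. The first 4 genes, with 7 probe sets, were set as feedback and stress targets of the hypoxia-inducible factors (HIF) against the 2 glycolytic enzymes Pgk1 and Tpi1, with 5 probe sets. These 4 genes are called HIF-linked below as a name only, since HIF also raises genes for glycolysis.

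Cells adjust to oxygen through HIF, a pair of proteins in which the alpha subunit is destroyed while oxygen is present. Prolyl hydroxylases, of which the Egln1 product PHD2 is the main one, mark HIF alpha for the VHL ubiquitin ligase. When HIF alpha persists it pairs with ARNT, binds short DNA elements and raises genes for glycolysis, pH control and mitochondrial turnover, and Egln1 itself, which closes a feedback loop. Bone marrow is a tissue of low oxygen, and MSC grown from it are known to rely strongly on glycolysis.

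The first group was MSC that spent 48 h in a transwell beside purified T cells (2 arrays). The T cells had been activated in vitro with anti CD3/CD28 and outnumbered the MSC 10 to 1. The second was MSC alone (3 arrays). The groups follow the sample titles and source names; the treatment field describes the co-culture for every sample, MSC alone included, which goes against those titles. In both groups the cells were mouse bone marrow MSC in primary culture in Mesencult medium. Mouse strain, sex and age, the oxygen level of the cultures and whether MSC alone were kept in an empty transwell are not given in the sources used here. Arrays within a group are labelled as biological repetitions, and no batch is given. The p-values measure only the spread between these arrays.

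Values are RMA summaries on the log2 scale, so 1 unit is a 2-fold difference, and RMA gives no call of presence or absence. The table was deposited in part: each of its 3373 probe sets had groups that did not overlap (100%), with a smallest separation of 0.34 log2 units, and each passed limma at an adjusted p below 0.05. A call is therefore what the selection of the table produces, and for the 6 genes it is given as a description. The sizes of the changes are favoured by the same selection. Median values over the table were 7.502 and 7.42 in co-cultured MSC and 7.64, 7.63 and 7.61 in MSC alone, a shift of -0.16. Of 14 MSC markers 6 were in the table (Pdgfra, Pdgfrb, Cd44, Vcam1, Cxcl12 and Col1a1), 4 lower and 2 higher in co-culture, and the other 8 were not analysed here. No T cell marker of the 11 listed was in the table. Of 12 macrophage markers Mpeg1 and Ctss were, with a mean level of 8.03 and 7.35 in co-cultured MSC against 3.74, 4.24 and 4.03 in MSC alone; their part in the results below was not tested. In RNA from whole cultures, fewer cells expressing a gene and less RNA per cell cannot be told apart.

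The sequences before the starts of 5 of these genes are shown because they hold the core of the HIF binding element. Whether that core bears on the changes was not tested. The core was searched as ACGTG and GCGTG on both strands, where the opposite strand reads CACGT and CACGC, in the 250 bases before the RefSeq start of each gene on GRCm38.p6. For Pdk1 that start lies 9 bases inside the annotated gene, and for the 5 others at its edge. Capitals mark the matches, and each sequence runs 5′ to 3′ on the strand of its gene. They lie at chr8:124949255-124949504 on the minus strand for Egln1, chr4:43506776-43507025 on the plus strand for Car9, chr2:71872974-71873223 on the plus strand for Pdk1, chr7:138909507-138909756 on the minus strand for Bnip3 and chrX:106186850-106187099 on the plus strand for Pgk1.
Egln1: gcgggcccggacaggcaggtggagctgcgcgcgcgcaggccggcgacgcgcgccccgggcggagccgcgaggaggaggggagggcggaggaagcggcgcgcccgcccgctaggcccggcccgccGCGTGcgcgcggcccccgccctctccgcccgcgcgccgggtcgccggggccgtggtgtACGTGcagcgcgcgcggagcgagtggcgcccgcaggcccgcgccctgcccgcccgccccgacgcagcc
Car9: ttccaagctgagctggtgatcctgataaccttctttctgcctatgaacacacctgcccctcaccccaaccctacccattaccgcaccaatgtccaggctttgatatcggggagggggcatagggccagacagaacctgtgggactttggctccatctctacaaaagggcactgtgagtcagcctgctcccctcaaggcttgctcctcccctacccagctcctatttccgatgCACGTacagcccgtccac
Pdk1: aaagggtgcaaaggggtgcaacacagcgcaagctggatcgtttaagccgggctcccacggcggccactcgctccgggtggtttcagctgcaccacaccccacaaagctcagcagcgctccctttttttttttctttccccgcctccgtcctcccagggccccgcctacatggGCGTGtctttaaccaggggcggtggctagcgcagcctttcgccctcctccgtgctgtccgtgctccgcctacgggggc
Bnip3: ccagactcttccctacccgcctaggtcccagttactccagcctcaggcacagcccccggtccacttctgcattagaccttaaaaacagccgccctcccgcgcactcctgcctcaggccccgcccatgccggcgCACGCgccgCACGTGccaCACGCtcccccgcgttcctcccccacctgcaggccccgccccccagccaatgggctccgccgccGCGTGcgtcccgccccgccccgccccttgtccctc
Pgk1: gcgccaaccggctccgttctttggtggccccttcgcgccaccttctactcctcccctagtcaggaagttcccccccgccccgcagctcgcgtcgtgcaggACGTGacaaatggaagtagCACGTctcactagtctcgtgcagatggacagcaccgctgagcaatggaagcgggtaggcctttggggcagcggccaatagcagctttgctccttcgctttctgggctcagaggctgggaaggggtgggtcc

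Egln1 held 2 matches, which began 126 and 68 bases before the start, and Car9 held 1, on the opposite strand, 18 bases before it. Pdk1 held 1 match, 78 bases before that start and 69 before the edge of the gene; a second annotated Pdk1 start, further into the locus, held 0. Bnip3 held 5 matches, of which those at 108 and 107 bases overlap and form the palindrome CACGTG. Pgk1 held 2, at 150 and 131 bases. In Tpi1 (chr6:124814159-124814408, minus strand), which was also lower in co-culture, these letters were not found. At least 1 match was present in 5 of the 6 promoters. The share was 38.6% of all 32851 RefSeq promoters of this length and 59.8% of the 1742 genes of the table with an entry, read at the first one listed. It was 60.0% among table genes lower in co-culture and 59.5% among those higher. A match is a description of the sequence and not a site of binding.

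**Figure D1:**
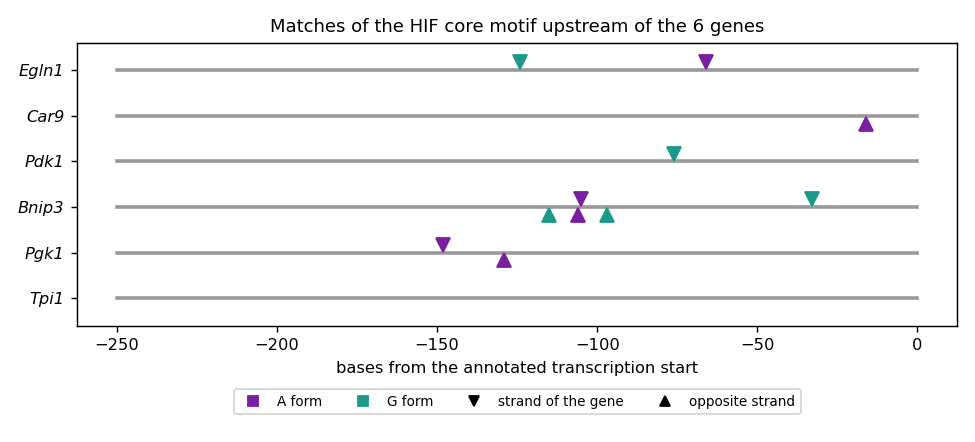
Positions of the HIF core motif in the 250 bases before the start of each of the 6 genes, in bases from the annotated start (x axis). Purple marks the form with A and green the form with G as first base, with down triangles for the strand of the gene and up triangles for the other strand. Bnip3 has the most matches, 5, and Tpi1 has 0.

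The 12 probe sets of the 6 genes were lower in co-culture, by between 1.39-fold and 8.004-fold. All 12 passed limma with Benjamini-Hochberg adjustment over the table, where 51.3% of probe sets were called lower. The 7 probe sets of Egln1, Car9, Pdk1 and Bnip3 fell at least 4-fold, as did 8.39% of the table's probe sets. None of the 5 probe sets of Pgk1 and Tpi1 did, and the largest fall among them was 1.81-fold. Had 15 times as many probe sets been in the adjustment, 3 of the 12, both of Egln1 and that of Car9, would have passed, as would 6.23% of the table on the lower side.

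Egln1, the oxygen-sensing hydroxylase that keeps HIF in check, was lower at both of its probe sets, which gave the largest and the smallest fall of the 7 HIF-linked ones. Its first probe set (1423785_at) read 8.12 and 7.28 in co-cultured MSC and 10.82, 10.85 and 10.44 in MSC alone. The 2 co-culture arrays stood apart from each other by 0.84 units, and both lay 2.315 units or more below the lowest array of MSC alone. The difference was -3.001 ± 0.30 (SE; 95% interval from -3.73 to -2.28), or 8.004-fold lower, with an adjusted p of 0.00138 in limma. The other Egln1 probe set (1451110_at) read 8.25 and 8.17 in co-culture against 10.38, 10.74 and 9.84 in MSC alone, a difference of -2.11 ± 0.29 (SE; 4.32-fold lower). The mean levels over the 5 arrays were 9.502 for the first and 9.476 for the second. In the second the co-culture arrays nearly coincided and MSC alone varied more, the reverse of the first.

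Car9 encodes carbonic anhydrase IX, a membrane enzyme that helps cells export acid. Its probe set 1427013_at read 7.91 and 8.07 in co-cultured MSC and 11.07, 11.01 and 10.30 in MSC alone. The co-culture arrays differed by 0.16 units, and the gap between the groups was 2.23 units. Car9 was 6.99-fold lower (-2.81 ± 0.28, SE; 95% interval from -3.48 to -2.13; adjusted p 0.00137 in limma).

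Pdk1 encodes pyruvate dehydrogenase kinase 1, which inhibits pyruvate dehydrogenase and so restrains the oxidation of pyruvate in mitochondria. Probe set 1423747_a_at read 8.13 and 7.84 in co-culture against 10.81, 10.81 and 9.75 in MSC alone, a difference of -2.47 ± 0.37 (SE; 5.55-fold lower; adjusted p 0.00349 in limma). Probe set 1423748_at read 7.77 and 7.32 in co-culture against 10.59, 10.45 and 9.12 in MSC alone, a difference of -2.50 ± 0.47 (SE). In both, MSC replicate 3 was the lowest of the controls by over 1 unit. It lay above both co-culture arrays, as the selection of the table ensures. The dimmest probe set (1435836_at) read 6.92 and 5.29 in co-culture against 8.94, 8.99 and 7.83 in MSC alone, a difference of -2.48 ± 0.57 (SE). The 3 probe sets thus gave nearly one mean change, but the dimmest one rests on co-culture arrays that differ by 1.63 units: its change was -3.30 without the first co-culture array and -1.67 without the second. In limma's linear model with unmoderated spread its adjusted p was 0.0509.

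Bnip3 encodes a BH3-type protein of the outer mitochondrial membrane that promotes removal of mitochondria. Its probe set 1422470_at read 10.73 and 9.90 in co-cultured MSC and 12.70, 13.06 and 11.66 in MSC alone. Both groups were spread widely, and MSC replicate 3 lay 0.935 units above the higher co-culture array. Bnip3 was 4.47-fold lower (-2.16 ± 0.46, SE; 95% interval from -3.29 to -1.03; adjusted p 0.00661 in limma).

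Pgk1 encodes phosphoglycerate kinase 1, which catalyses the first ATP-yielding step of glycolysis. Probe set 1417864_at read 13.56 and 13.51 in co-cultured MSC and 14.12, 14.13 and 14.04 in MSC alone. The arrays of each group lay within 0.10 units, so a difference of -0.56 ± 0.16 (SE; 95% interval from -0.96 to -0.16; 1.48-fold lower) separated them, with an adjusted p of 0.0143 in limma. The adjusted p was 0.0537 without MSC replicate 1, 0.0543 without MSC replicate 2 and 0.0516 with arrays centred on their medians. The other Pgk1 probe set (1439435_x_at) read 12.80 and 12.74 in co-culture against 13.22, 13.29 and 13.22 in MSC alone, a difference of -0.47 ± 0.16 (SE), and its call had the same losses (adjusted p 0.0732, 0.0913 and 0.106) and another without co-culture replicate 2 (0.0738).

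Tpi1 encodes triosephosphate isomerase, which interconverts the 3-carbon sugars made midway through glycolysis. Probe set 1452927_x_at read 12.47 and 12.55 in co-cultured MSC and 13.33, 13.43 and 13.03 in MSC alone. The groups were 0.48 units apart at their nearest arrays, and the difference was -0.76 ± 0.20 (SE; 1.69-fold lower; adjusted p 0.00956 in limma). Probe sets 1415918_a_at and 1435659_a_at differed by -0.86 ± 0.20 and -0.72 ± 0.20 (SE). Probe sets whose names end in _x_at can bind related transcripts; for each of Pgk1 and Tpi1 a probe set without that ending is given beside it and fell too.

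**Figure D2:**
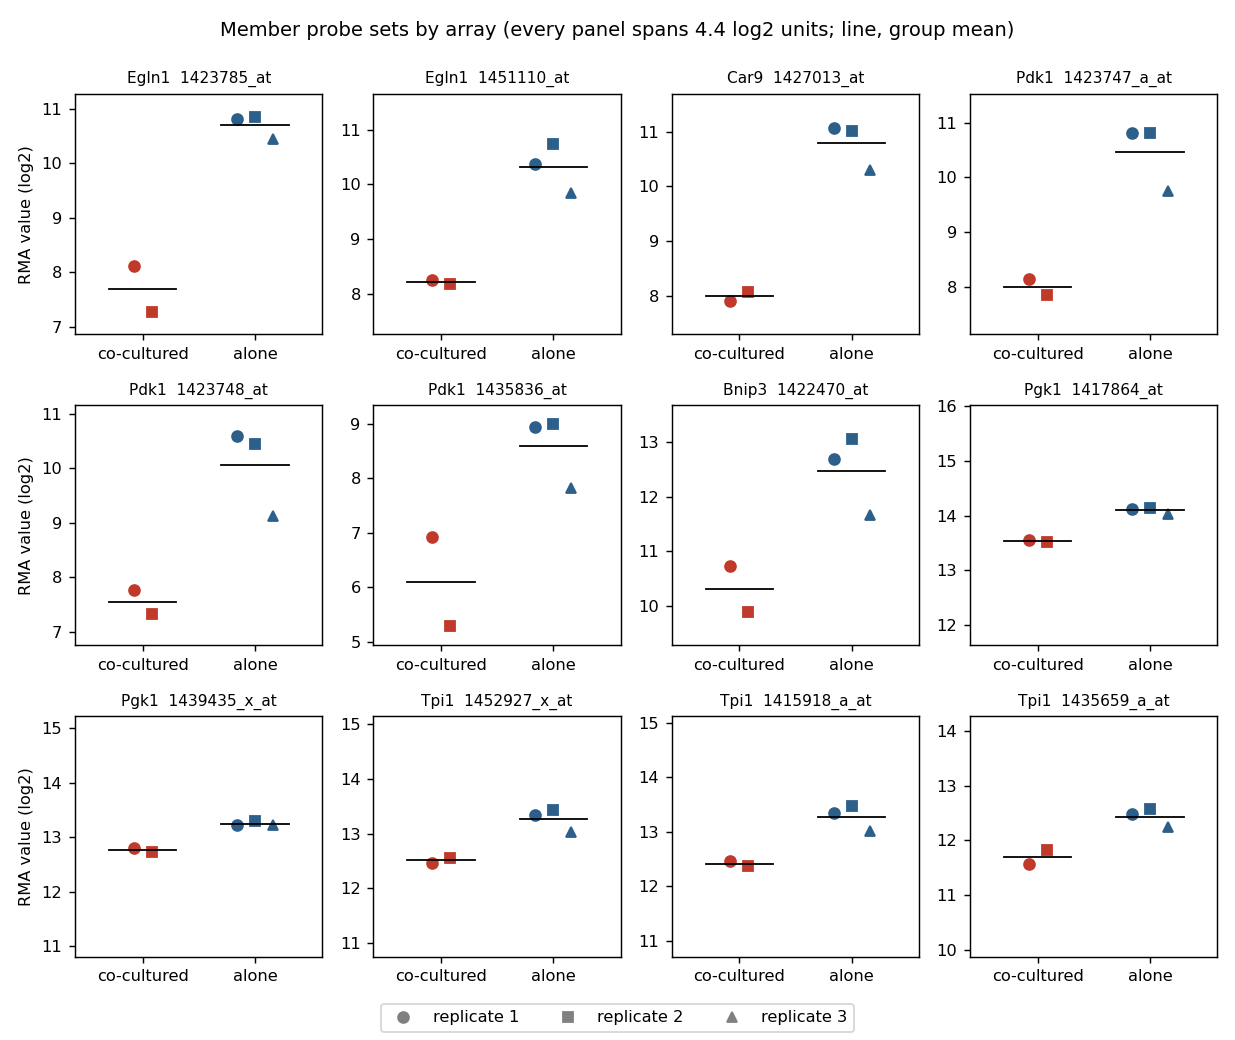
RMA values on the log2 scale (y axis) of the 12 probe sets in 2 co-cultured (red) and 3 MSC alone (blue) arrays, with symbols for the replicate and a line at each group mean. Every co-culture point lies below every MSC alone point, where groups did not overlap in 100% of the table's probe sets. The steps are small for Pgk1 and Tpi1.

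The HIF feedback and stress targets were then set against the glycolytic enzymes within each array. Each gene was taken as its difference from its own mean in MSC alone, so that levels of different probes were not compared, and a gene was represented by its brightest probe set. The mean of Egln1, Car9, Pdk1 and Bnip3 stood at -2.38 and -2.84 in co-culture replicates 1 and 2, and at 0.24, 0.33 and -0.57 in MSC alone. The mean of Pgk1 and Tpi1 stood at -0.67 and -0.65 in co-culture, and at 0.05, 0.10 and -0.15 in MSC alone. The mean of the enzymes thus moved by nearly the same amount in both co-culture arrays, while that of the HIF-linked genes differed between them by 0.45. Co-culture replicate 2 less replicate 1 was -0.84 for Egln1, -0.83 for Bnip3, -0.30 for Pdk1 and 0.16 for Car9. At the other Egln1 probe set it was -0.075. The HIF-linked mean less that of the enzymes was -1.71 and -2.19 in co-culture, against 0.20, 0.22 and -0.42 in MSC alone. The mean over co-culture arrays was -1.95 ± 0.33 (SD, n = 2); no test is given because the genes were chosen with results known. By size of the fall at the brightest probe set the genes ran Egln1, Car9, Pdk1, Bnip3, Tpi1 and Pgk1. The place of Egln1 depends on the probe set: averaged over its 2 probe sets it changed by -2.56, behind Car9 at -2.81, and without co-culture replicate 2 its brightest probe set changed by -2.58, against -2.89 for Car9. The 95% intervals of all neighbours in that order overlapped, Bnip3 (up to -1.03) and Tpi1 (down to -1.23) included. At the brightest probe sets those of Egln1, Car9 and Pdk1 lay wholly below those of both enzymes. The interval of the dimmest Pdk1 probe set (up to -1.10) overlapped that of Tpi1.

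**Figure D3:**
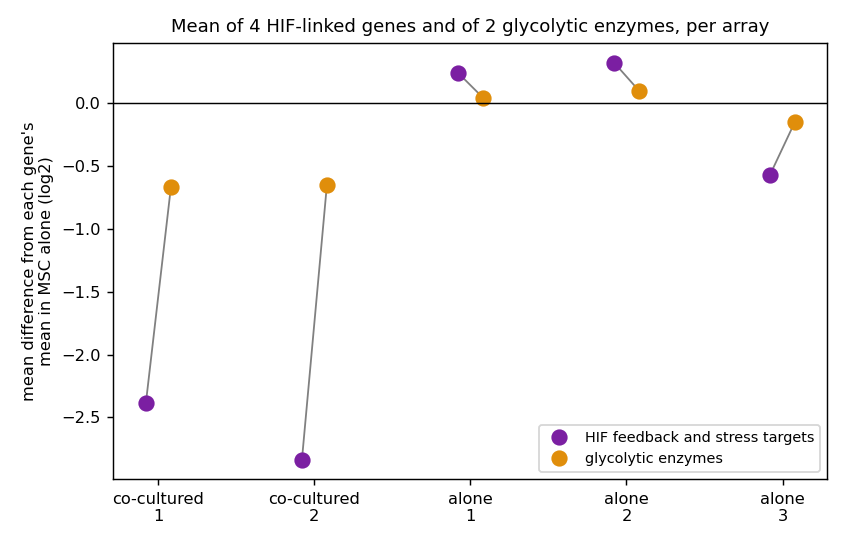
Mean difference from each gene's own mean in MSC alone (y axis, log2) of 4 HIF-linked genes (purple) and 2 glycolytic enzymes (orange) in each of 5 arrays. In co-culture the purple points are at -2.38 and -2.84 and the orange points at -0.67 and -0.65; among MSC alone, replicate 3 is the lowest for both sets.

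Pgk1 and Tpi1 are bright probe sets, with means of 14.09 and 13.27 in MSC alone, near the highest value of the table, 14.59. Of the 29 lower probe sets with a mean of at least 13 in MSC alone, 11 were at least 4-fold lower in co-culture, and their median change was -1.32. The median was -1.23 over the 233 lower probe sets between 10 and 12, where most of the HIF-linked probe sets lay. Fam162a, a HIF target with a mean of 13.09 ± 0.21 in MSC alone (SD, n = 3), read 10.68 and 10.55 in co-culture, a 5.56-fold fall. Whether brightness bears on the size of the changes of Pgk1 and Tpi1 was not tested.

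**Figure D4:**
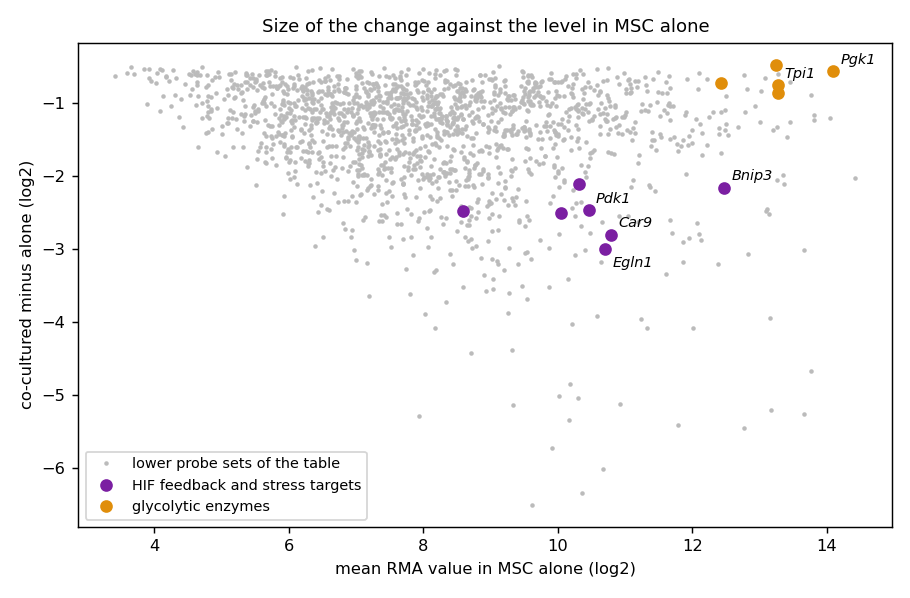
Difference between co-cultured MSC and MSC alone (y axis, log2) against the mean value in MSC alone (x axis, log2) for the 1731 lower probe sets of the table (grey). The 7 HIF-linked probe sets (purple) lie between -3.001 and -2.11, and the 5 of Pgk1 and Tpi1 (orange) between -0.86 and -0.47.

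The other genes of these pathways were read from 6 lists. Of all 2190 genes of the table, a share of 51.7% was called lower and 48.3% higher, with a median change of -0.61. Of 40 HIF targets listed 10 were measured, 3 of them Car9, Pdk1 and Bnip3. Of the 7 others 5 fell and 2 rose, with a median change of -1.29, against -1.87 over all 10. Besides Fam162a, P4ha2 and P4ha1, which encode catalytic subunits of collagen prolyl hydroxylase, were 7.23-fold and 2.44-fold lower. P4ha2 read 9.02 and 9.17 in co-culture against 11.83, 11.76 and 12.26 in MSC alone. Higd1a, a small mitochondrial protein gene, was 2.98-fold lower and Kdm4b, a histone demethylase gene, 1.90-fold lower. Insig2, which restrains sterol synthesis, and Tfrc, the transferrin receptor gene, were 2.88-fold and 2.01-fold higher. Vegfa, Adm, Ddit4 and the other targets outside the table were not analysed here. The measured glycolysis genes were counted in their own list and not among the HIF targets.

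Of 15 HIF regulators 6 were measured, Egln1 among them. Of the 5 others 2 were lower and 3 higher; their median change was 0.50, and that over all 6 was -0.59. Eloc, encoding elongin C of the VHL complex, was 3.73-fold lower at 5.95 and 5.28 in co-culture against 7.54, 7.28 and 7.72 in MSC alone. Cited2, encoding a protein that competes with HIF for its coactivator, was 3.21-fold lower, and its other probe set changed by -1.17 log2 units. Arnt, the partner of HIF alpha, was 2.44-fold higher, with 8.63 and 9.04 in co-culture against 7.22, 7.85 and 7.58 in MSC alone. Cul2, the scaffold of the VHL ligase, was 1.76-fold higher. Hif3a was 1.42-fold higher at low values, 5.07 ± 0.05 (SD, n = 2) in co-culture and 4.57 ± 0.04 (SD, n = 3) in MSC alone. Its adjusted p in limma was 0.0656 without MSC replicate 1, 0.0765 without MSC replicate 2 and 0.0633 without co-culture replicate 2. Hif1a, Epas1 and Vhl were not analysed here.

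Of 32 genes listed for glycolysis 6 were measured, Pgk1 and Tpi1 among them. The 4 others fell, with a median change of -1.69, against -1.22 over the table's genes lower in co-culture. Pfkl, the liver-type subunit of phosphofructokinase, was 4.14-fold lower, at 9.34 and 8.79 in co-culture against 11.27, 11.39 and 10.69 in MSC alone. Ldhb, a lactate dehydrogenase subunit, read 9.89 and 8.23 in co-culture against 11.76, 11.71 and 11.51 in MSC alone. Its change was -2.599 ± 0.47 (SE), with -3.43 without the first co-culture array and -1.77 without the second. Ldha, the other lactate dehydrogenase subunit, was 2.50-fold and Pgam1, phosphoglycerate mutase, 2.39-fold lower. Each of these 4 enzymes thus had a larger estimated fall than Pgk1 and Tpi1. The 95% intervals of Pfkl (from -2.76 to -1.34) and Ldhb (from -3.73 to -1.46) lay below that of Tpi1 and overlapped that of Bnip3, while that of Pgam1 (from -1.70 to -0.81) overlapped that of Tpi1. The median of these 4 (-1.69) lay below that of the 7 HIF targets outside the 6 genes (-1.29), 2 of which rose. At their brightest probe sets the 4 HIF-linked genes changed by between -3.001 and -2.16. Beside them Pfkl (-2.05), Ldha (-1.32) and Pgam1 (-1.26) also fell less, though by a smaller margin than Pgk1 and Tpi1. Ldhb was the exception, with a larger estimated fall than Pdk1 (-2.47) and Bnip3. These differences between genes were not tested.

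**Figure D5:**
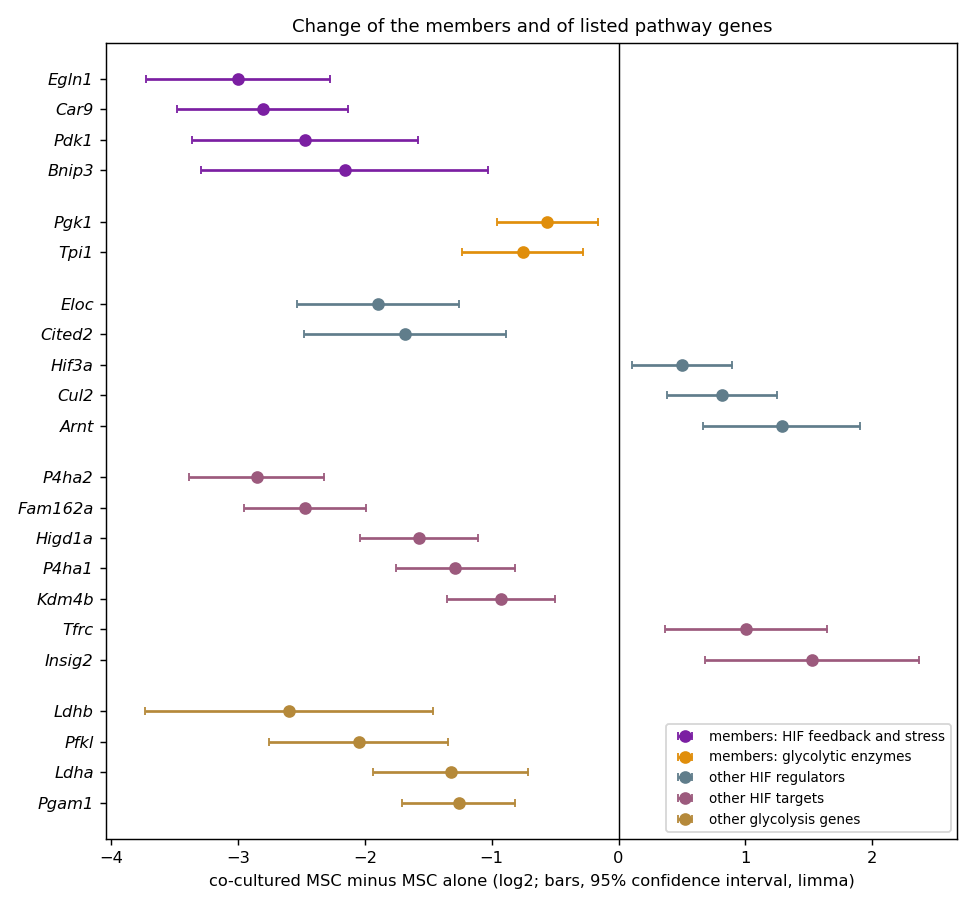
Change between co-cultured MSC and MSC alone (x axis, log2, with the 95% interval from limma) of the 6 genes and of the other measured genes of the HIF and glycolysis lists (y axis). Pgk1 and Tpi1 have the smallest falls, and Hif3a, Cul2, Arnt, Tfrc and Insig2 lie above 0.

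The partners of Pdk1, Bnip3 and Car9 gave mixed results. Of 15 genes of pyruvate entry into mitochondria only Pdk1 and Pcx, which encodes pyruvate carboxylase, were in the table, and Pcx was 2.17-fold lower. Of 18 mitophagy genes 7 were measured, and of the 6 besides Bnip3 4 were lower and 2 higher, with a median change of -0.71. The receptor genes Fundc1 and Bcl2l13 changed by -0.98 ± 0.16 and -1.31 ± 0.33 (SE). Pink1, a kinase gene that marks damaged mitochondria, changed by -0.80 ± 0.20 and Map1lc3a, encoding an autophagosome protein, by -0.62 ± 0.18 (SE). The call of Map1lc3a was lost without MSC replicate 1 (adjusted p 0.0606 in limma), without MSC replicate 2 (0.0509), without co-culture replicate 1 (0.0651) and with median-centred arrays (0.0535), and that of Bcl2l13 without moderation (0.0511). Sqstm1, the p62 cargo adaptor gene, and Tbk1, a kinase gene, were 2.59-fold and 1.68-fold higher. In log2 units Sqstm1 rose by 1.37 at this probe set and by 4.55 at its other probe set, so the size depends on the probe set. Of 16 carbonic anhydrases 3 were measured: besides Car9, the mitochondrial Car5b changed by -1.76 ± 0.21 and the cytosolic Car13 by 2.15 ± 0.40 (SE). The change of Car13 was 2.75 without the first co-culture array and 1.56 without the second.

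MSC alone were not uniform in these genes. MSC replicate 3 was the lowest control in 11 of the 12 probe sets, the exception being the Pgk1 probe set 1439435_x_at, as against 31.1% of the 1731 lower probe sets of the table. In the 7 HIF-linked probe sets its difference from the mean of replicates 1 and 2 was between -1.40 and -0.40. The 3 Pdk1 probe sets and that of Bnip3 were at least 1 unit below, as were 1.68% of the lower probe sets. In Pgk1 (1417864_at) and Tpi1 (1452927_x_at) that difference was -0.09 and -0.35. The HIF-linked set thus varied more than the enzymes among controls, an observation that rests on 1 array. Among the other genes of the lists, MSC replicate 3 was below the mean of replicates 1 and 2 in 6 of 7 HIF targets, with P4ha2 higher by 0.47 as the exception, in 4 of 4 glycolysis genes and in 0 of 5 HIF regulators. It was below that mean in 41.2% of the table's genes lower in co-culture and in 52.1% of all its genes. The same array read 5.93 for Pdgfra, against 7.60 and 8.40 in replicates 1 and 2, and 9.74 for Cxcl12, against 8.05 and 7.99. Without MSC replicate 3 the changes of Bnip3 and of the Pdk1 probe set 1423748_at were -2.57 and -2.97.

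The genes of the table whose profiles over the 5 arrays lay nearest were found by the root mean square difference of mean-centred log2 values. For Pdk1 the nearest were Arhgap18 (0.05) and Gpr35 (0.18), and for Bnip3 Gng2 (0.18) and Gpr35 (0.19). For Car9 they were Itgbl1 (0.14) and Arhgap18 (0.23), and for Egln1 Gas1 (0.23) and Fam20a (0.24). Arhgap18 read 4.25 and 3.99 in co-culture against 6.89, 6.87 and 5.95 in MSC alone, so like Pdk1 it was lowest among controls in replicate 3. This probe set changed by -2.45 and the other Arhgap18 probe set by -1.16, so the likeness in size holds for the first only. For Pgk1 the nearest were Trappc1 (0.02) and Scaf8 (0.04), and for Tpi1 Nmt2 (0.06) and Lpp (0.07). Nmt2 was read at its brightest probe set, which changed by -0.75, while its 2 other probe sets were higher in co-culture, by 2.19 and 1.72, so the likeness to Tpi1 holds for that probe set and not for the gene. None of these 10 genes was on the HIF or glycolysis lists, and in a table selected on the group difference many genes share such a profile.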

How the data were processed

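Expression had been measured on Affymetrix arrays from biotin-labelled cRNA, 2 of co-cultured MSC and 3 of MSC alone, grouped by sample title. The deposited log2 values were made by the authors with RMA, per the submitters' processing notes; the version, and the rule by which 3373 probe sets were chosen, are not given in the sources used here. All 5 columns matched a sample (0 left over). The platform annotation gave 1 symbol for 3013 probe sets, several for 69 and none for 291; identifiers of 3010 were found in RefSeq (GRCm38.p6), which changed 0 symbols.

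limma 3.58.1 under R 4.3.3 (lmFit, eBayes) was run over the whole table without covariates or filter, two-sided, at 0.05 after Benjamini-Hochberg adjustment. Its mean estimates were checked on simulated data in which most probe sets were unchanged. That check does not cover calls in a table selected on the group difference. Where a gene had several probe sets, the brightest on average stood for it. The 6 genes and the lists were chosen with earlier results of these data known, so no list was tested. Named genes are the 6 genes, the measured genes of 6 pathway lists and the 2 nearest profiles of each; MSC and macrophage markers come from marker lists. The number of arrays limits the precision. Promoter sequences are RefSeq's; all 6 genes matched. Alternatives changed the centring, moderation, dim-probe filter, number of tests, replicate block, choice of probe set and arrays.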

Additional observations from a re-analysis of the deposited data

How the results depend on the processing

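All 12 probe sets of the 6 genes remained lower in co-culture in the 11 alternatives to the test. Where 1 array was left out this was fixed in advance, because the groups do not overlap. It was also fixed where only the spread, the filter or the number of tests changed, because the estimates stay the same. Of the 132 adjusted p-values of these probe sets under the alternatives 115 stayed past the threshold and 17 did not. With 15 times as many tests in the adjustment 3 of the 12 passed, as did 6.23% of the table on the lower side. Leaving out 1 array each time, between 10 and 12 passed; the losses were in Pgk1. With arrays centred on their medians 10 passed, without moderation 11, and with a trended robust prior or without the dimmest 25% of probe sets 12. All 3373 probe sets of the table passed the main fit, so such counts do not set the 12 apart. The share of the table that passed is given only for centring and for the number of tests. With the replicate number as a block 12 passed; deviations of same-numbered arrays correlated across probe sets at 0.22 and 0.32, but 2 pairs do not establish pairing, and no call changed. Centring raised the changes of the 12 probe sets by the table's shift, to between -2.84 and -0.31, with 1673 probe sets called lower and 1642 higher. The mean change of the HIF-linked genes less that of the enzymes was -1.95. It lay between -2.19 and -1.71 when 1 array was left out. It was -1.85 with all probe sets of a gene averaged and -1.90 without _x_at probe sets. The enzymes in this difference are Pgk1 and Tpi1 only. The 4 other glycolysis genes had a median change of -1.69, against -1.29 for the 7 other HIF targets and -2.64 for the HIF-linked genes. Under 15 times as many tests 121 of the table's 1133 lower genes and 119 of its 1057 higher genes stayed called. In the lists, the 6 genes included, 4 of 8 HIF targets and 1 of 6 glycolysis genes stayed called lower. So did 2 of 3 HIF regulators and 0 of 5 mitophagy genes. Of the genes called higher, 0 of 2 HIF targets and 0 of 3 HIF regulators stayed called. The values give no detection calls, which limits the low ones, such as Hif3a, Car5b and the co-culture values of Arhgap18, Gpr35 and Itgbl1.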
